A study of Arabidopsis thaliana with 8 samples.

Results

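The genes described here are 10 Arabidopsis thaliana genes of root hair formation: the bHLH transcription factor genes RHD6 (AT1G66470), RSL1 (AT5G37800), RSL2 (AT4G33880) and RSL4 (AT1G27740), the expansin genes EXPA7 (AT1G12560) and EXPA18 (AT1G62980), the wall protein genes COBL9 (AT5G49270), LRX1 (AT1G12040) and PRP3 (AT3G62680), and the NADPH oxidase gene RHD2 (AT5G51060). They were found by matching the locus name of each array probe. All 10 were on the array with 1 probe each, and all 10 were among the 24599 genes and other features tested. The samples were whole seedlings of the voz1 voz2 double mutant and of wild type, both in the Col-0 background, with 4 arrays of each. Plants were 14 days old and had grown untreated at 22 °C on half-strength MS agar under 16 h of light and 8 h of dark. The mutant carries mutations in VOZ1 and VOZ2, a pair of zinc-finger transcription factors that interact with phytochrome B; the alleles and the place of each disruption are not given in the sources used here. The design asks which transcripts differ between these genotypes.

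Root hairs are tubular outgrowths of single epidermal cells that enlarge the root surface for uptake of water and nutrients. A hair-forming cell is specified by a patterning network that ends in the repressor GL2. Where GL2 is not active, RHD6 and RSL1 start the hair programme, and they switch on RSL2 and RSL4, of which RSL4 is known to set how long a hair grows. Growth itself runs at the tip and needs secreted wall proteins, enzymes that loosen the wall, and reactive oxygen made by RHD2, which sustains the calcium gradient at the tip.

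Levels are log2 processed signals of the Agilent one-colour arrays minus each array's 75th percentile, so a level of 0 is the brightness at that percentile, and levels of different probes are not compared. Per array, between 60.4% and 70.3% of probes were well above background by the scanner's flag. The VOZ2 (AT2G42400) probe read -4.26 ± 0.48 in voz1 voz2 and 1.48 ± 0.30 in wild type, and the VOZ1 (AT1G28520) probe read -1.01 ± 0.17 in voz1 voz2 and 0.49 ± 0.06 in wild type (SD, n = 4 each, limma adjusted p = 0.000102 and 0.00154). All 12 shoot markers listed and all 13 root markers from outside the hair could be tested, as could 24599 of the 36907 features fitted with no filter on dim probes. This shows signal for both sets of markers and no more about the tissue. The arrays lay on 2 slides, each with 2 arrays of each genotype; replicates 1 and 3 were on slide 1, and replicates 2 and 4 on slide 2. Nothing in the labels says that replicates were grown apart, so the p-values cover no more than the spread among these arrays, and that spread may be technical. The labels also do not say that equal replicate numbers pair arrays across genotypes, and pairs below are by number only.

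None of the 10 root hair genes passed the threshold of a limma adjusted p of 0.05 in either direction, where 4.44% of all features did. By direction, 2.72% of features were called higher and 1.72% lower. The count stayed 0 when replicate number was blocked on, a fit in which 13.5% of all features passed. An unadjusted limma p under 0.05 was found for 2 of the 10, RSL4 and PRP3, which is near the share of 23.6% over all features. Of the 10 estimates, 8 were above 0, against 47.2% of all features. Their median was 1.16 (log2, voz1 voz2 minus wild type), beside a median of -0.030 over all features. In none of the 10 did the 4 mutant values lie wholly above or wholly below the 4 wild type values, whereas 8.46% of features were wholly above and 7.85% wholly below.

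**Figure D1:**
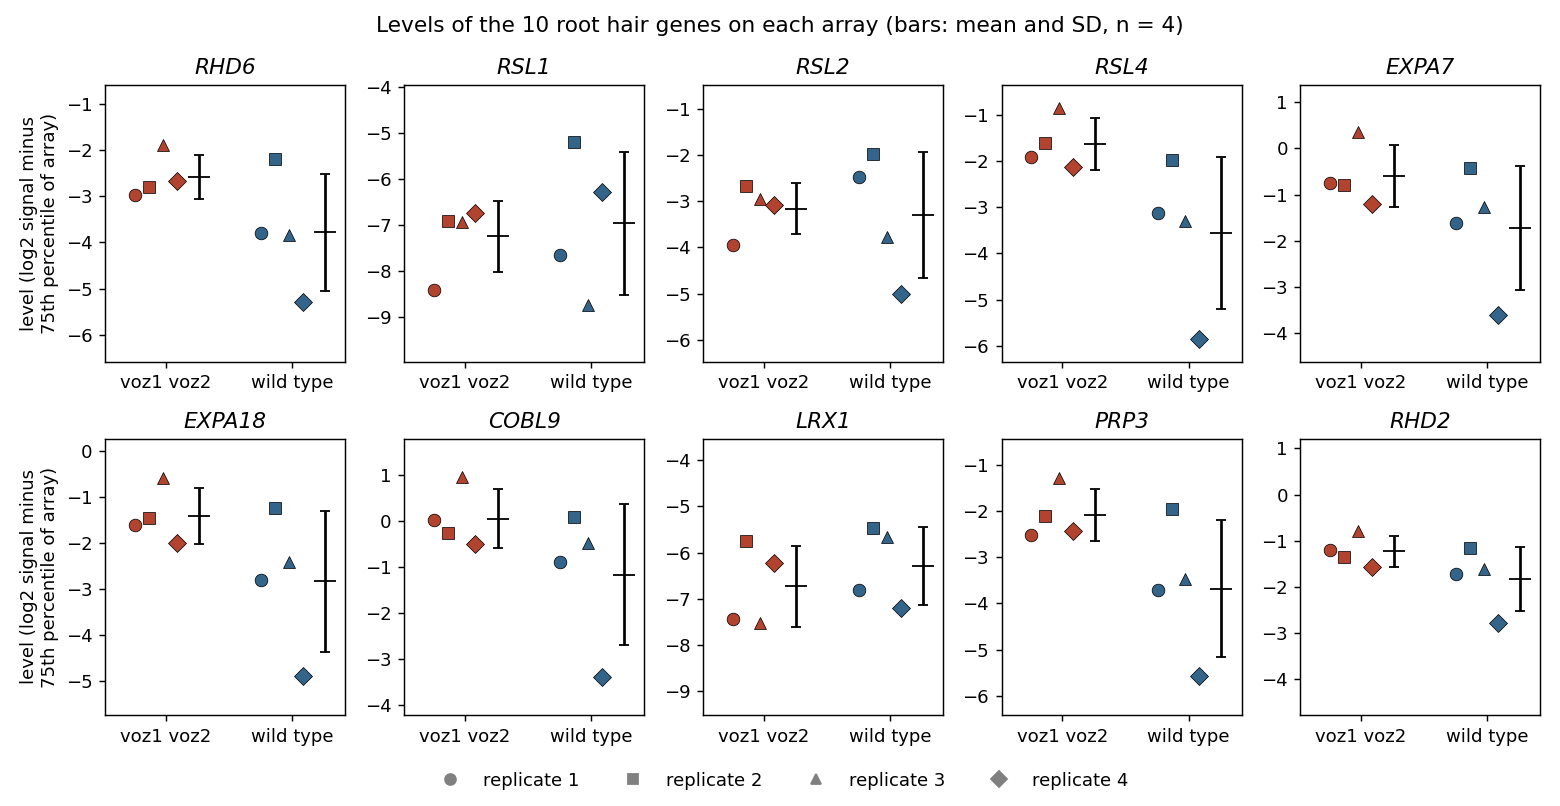
Levels of the 10 root hair genes, 1 panel each, on the 4 voz1 voz2 arrays (red, left) and the 4 wild type arrays (blue, right); the vertical axis is log2 processed signal minus the array's 75th percentile, each panel spans the same number of log2 units, marker shapes give the replicate number, and bars are mean and SD. Wild type replicate 2 is the highest wild type array in all 10 panels and wild type replicate 4 the lowest in 9.

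Among the wild type arrays 2 stood apart in these genes, as the plot of levels by array shows. Wild type replicate 4 was the lowest of all 8 arrays for 8 of the 10 genes, against 19.1% of all features with a value on every array. Wild type replicate 2 was the highest wild type array for all 10, against 21% of features. Both held at once for 9 of the 10 genes and for 7.58% of features. The mean level over the 10 genes was -3.07, -2.57, -2.15 and -2.86 on voz1 voz2 replicates 1 to 4, against -3.46, -2.15, -3.45 and -4.99 on wild type replicates 1 to 4. The wild type values thus ran from well below the lowest mutant array up to wild type replicate 2, which was level with the highest mutant array, replicate 3. Where these genes are low on an array of whole seedlings, less root in the sample, fewer root hair cells and less RNA per root hair cell cannot be told apart.

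RHD6, the bHLH factor that starts the hair programme, was at -2.97, -2.80, -1.88 and -2.68 on voz1 voz2 replicates 1 to 4, against -3.80, -2.18, -3.85 and -5.29 on the wild type replicates. All mutant arrays were above wild type replicates 1, 3 and 4, and 3 of the 4 were below wild type replicate 2. The difference was 1.20 (SE 0.59, 95% interval -0.14 to 2.54, limma adjusted p = 0.259). It was 0.69 without wild type replicate 4, and 1.73 without wild type replicate 2 (adjusted p = 0.0601). On slide 1 it was 1.40 and on slide 2 it was 1.0.

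RSL1, the close relative of RHD6 that acts with it, was barely measured. Its levels were -8.41, -6.90, -6.93 and -6.75 in voz1 voz2, against -7.66, -5.20, -8.73 and -6.28 in wild type. The probe was well above background on the 4 arrays of slide 2, replicates 2 and 4 of each genotype, and on no array of slide 1, so its detection followed the slide and not the genotype. The difference of -0.28 (SE 0.74, 95% interval -1.98 to 1.42, adjusted p = 0.858) changed sign between slides, at 0.52 on slide 1 and -1.09 on slide 2. On slide 2, where the probe was measured, both mutant arrays were below both wild type arrays, as in 29.5% of features there. The sign was also positive under quantile normalization, and without voz1 voz2 replicate 1 or wild type replicate 2.

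RSL2, one of the factors that RHD6 and RSL1 switch on, gave no steady direction either. It was at -3.94, -2.66, -2.95 and -3.09 in voz1 voz2, against -2.48, -1.97, -3.76 and -5.02 in wild type. All mutant arrays lay between the extremes of wild type, with wild type replicates 1 and 2 above every mutant array and wild type replicate 4 below every one. The difference was 0.15 (SE 0.63, 95% interval -1.31 to 1.60, adjusted p = 0.918). Within slides it was -0.33 on slide 1 and 0.62 on slide 2, and it was -0.42 without wild type replicate 4. Its sign also turned with normexp background correction, in the values as deposited, and without voz1 voz2 replicate 2 or wild type replicate 3.

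RSL4, the factor known for setting hair length, had the largest estimate of the 10 genes. Its levels were -1.91, -1.61, -0.84 and -2.14 in voz1 voz2, against -3.12, -1.97, -3.30 and -5.85 in wild type. Only wild type replicate 2 reached into the mutant range, above voz1 voz2 replicate 4 and below the other mutant arrays. The difference was 1.93 (SE 0.74, 95% interval 0.23 to 3.64), or 3.82-fold, with an unadjusted p of 0.0304 and a limma adjusted p of 0.165. Blocking on replicate number gave an adjusted p of 0.0765. It was the single gene of the 10 in which the mutant array was above the wild type array of the same number in all 4 pairs, by 1.21, 0.36, 2.45 and 3.72. Slides gave similar values, 1.83 and 2.04, while leaving out wild type replicate 4 brought it to 1.17 (adjusted p = 0.212).

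The expansin genes EXPA7 and EXPA18, whose products loosen the wall of growing hairs, followed nearly the same order of arrays. EXPA7 was at -0.74, -0.80, 0.35 and -1.22 in voz1 voz2, against -1.61, -0.43, -1.27 and -3.60 in wild type. EXPA18 was at -1.62, -1.46, -0.59 and -2.01 in voz1 voz2, against -2.80, -1.24, -2.42 and -4.89 in wild type. In both genes voz1 voz2 replicate 3 was the highest array, wild type replicate 2 the next and wild type replicate 4 the lowest, and wild type replicates 1 and 3 were below all mutant arrays. The difference of EXPA7 was 1.13 (SE 0.65, 95% interval -0.35 to 2.61, adjusted p = 0.332). That of EXPA18 was 1.42 (SE 0.70, 95% interval -0.19 to 3.03, adjusted p = 0.265). Without wild type replicate 4 these were 0.50 and 0.73.

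COBL9, a membrane-anchored COBRA-like protein needed for normal hair growth, was at 0.016, -0.27, 0.95 and -0.50 in voz1 voz2, against -0.90, 0.083, -0.48 and -3.38 in wild type. Here wild type replicate 3 also reached the mutant range, just above voz1 voz2 replicate 4. The difference was 1.22 (SE 0.71, 95% interval -0.41 to 2.84, adjusted p = 0.34), and 0.48 without wild type replicate 4.

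PRP3, a proline-rich wall protein of hair-forming cells, was at -2.52, -2.10, -1.29 and -2.42 in voz1 voz2, against -3.71, -1.96, -3.47 and -5.56 in wild type. Every mutant array was above 3 of the 4 wild type arrays, and wild type replicate 2 was above 3 of the 4 mutant arrays. The difference was 1.59 (SE 0.68, 95% interval 0.041 to 3.15), or 3.02-fold, with an unadjusted p of 0.0454 and a limma adjusted p of 0.203. It was 0.97 without wild type replicate 4 and 2.17 without wild type replicate 2 (adjusted p = 0.0616).

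LRX1, a chimeric protein of leucine-rich repeats and extensin that sits in the hair wall, was also dim, and its probe was well above background on all 4 arrays of slide 2 and on none of slide 1. Its levels were -7.43, -5.75, -7.53 and -6.23 in voz1 voz2, against -6.81, -5.47, -5.67 and -7.20 in wild type. The processed signal of the probe ran from 6.55 to 49.8 over the 8 arrays. The difference of -0.45 (SE 0.53, 95% interval -1.66 to 0.77, adjusted p = 0.659) was -1.24 on slide 1 and 0.35 on slide 2.

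RHD2, the respiratory burst oxidase that makes reactive oxygen at the hair tip, varied least of the 10 genes. It was at -1.21, -1.36, -0.78 and -1.57 in voz1 voz2, against -1.73, -1.16, -1.61 and -2.79 in wild type. The order of arrays was close to that of the expansin genes, with voz1 voz2 replicate 3 at the top and wild type replicate 4 at the bottom. The difference was 0.59 (SE 0.34, 95% interval -0.19 to 1.38, adjusted p = 0.334), or 1.51-fold, and 0.27 without wild type replicate 4.

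**Figure D2:**
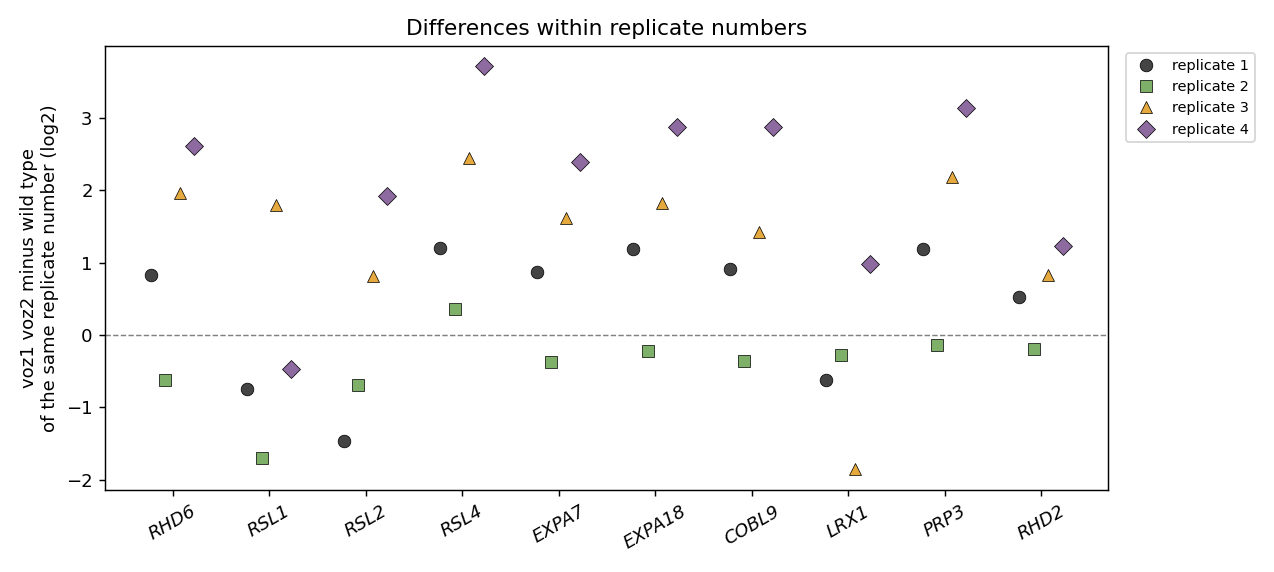
Difference in level between the voz1 voz2 and the wild type array of the same replicate number (log2, vertical axis) for each of the 10 genes; marker shapes and colours give the replicate number and the dashed line is 0. Replicate 2 (green squares) lies below 0 in 9 of the 10 genes, and replicate 4 (purple diamonds) above 0 in 9.

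Differences within replicate numbers spread widely and in the same order for most of the genes. For RHD6, RSL4, EXPA7, EXPA18, COBL9, PRP3 and RHD2 the difference was smallest in replicate 2, from -0.62 in RHD6 to 0.36 in RSL4, and largest in replicate 4, from 1.23 in RHD2 to 3.72 in RSL4. Of these 7 genes, 6 had 3 of 4 pairs above 0, the exception being RSL4 with 4. RSL1 and LRX1 had 1 of 4 pairs above 0 each, and RSL2 had 2.

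**Figure D3:**
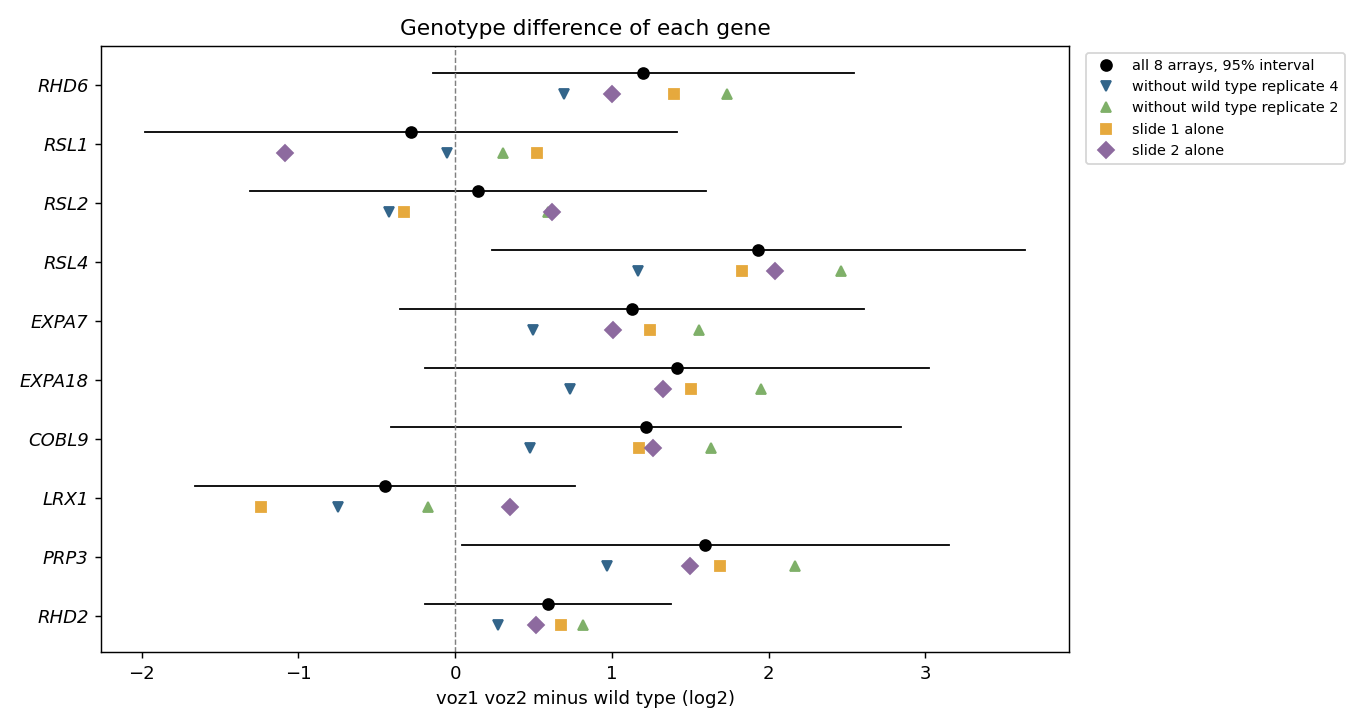
Difference between voz1 voz2 and wild type (log2, horizontal axis) for each of the 10 genes. Black points and lines are the limma estimate over all 8 arrays with its unadjusted 95% interval, and coloured markers below them are the estimate without wild type replicate 4, without wild type replicate 2, on slide 1 alone and on slide 2 alone. The intervals of RSL4 and PRP3 lie above 0 and the other 8 include 0; RHD6, RSL4, EXPA7, EXPA18, COBL9, PRP3 and RHD2 keep all markers above 0.

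The size of the estimates changed with the wild type arrays that stood apart and with the background correction. The median difference of the 10 genes was 0.49 without wild type replicate 4 and 1.60 without wild type replicate 2, and lay between 0.86 and 1.28 when any other array was left out. With normexp background correction it was 0.64, with RHD6 at 0.53, RSL4 at 1.09, EXPA18 at 0.76 and PRP3 at 0.83. In the values as deposited, which subtract a constant per genotype and are not scaled per array, the 10 genes shifted down together. There RHD2 was at 0.26, and the median of all features was -0.37 against -0.030 in the main scaling. Without wild type replicate 2, RHD6, RSL4, EXPA7, EXPA18, PRP3 and RHD2 had all 4 mutant values above the remaining 3 wild type values. These were 6 of 10 genes, beside 12.5% of features. That share is not a like comparison. The array left out was the highest wild type array for all 10 genes but for 21% of features, so its removal could only raise the count of the 10. Still none passed the threshold, which 6.12% of features did. Slide 1 holds neither wild type replicate 2 nor wild type replicate 4. There both mutant arrays were above both wild type arrays for the same 6 genes and COBL9, 7 of 10 against 26.5% of features. LRX1 was below, as were 29.4%, though its probe was not well above background on that slide. On slide 2 none of the 10 was wholly above, against 25.2%. The 10 genes had a median of 1.21 on slide 1 and of 1.004 on slide 2. In limma no feature passed the threshold on either slide by itself. Unadjusted p-values under 0.05 were found on slide 1 for 8 of the 10 genes, against 18.3% of features. Of these, 7 were higher, against 10.1% of features, and LRX1 was lower, against 8.19%. On slide 2 there were 0 of 10, against 16.4%.

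The 10 genes were among the more variable features of the series. Their within-genotype SD lay between 0.54 for RHD2 and 1.23 for RSL4, at the 77.6th to the 97.1st percentile of all features, whose median was 0.33. The spread was on the wild type side for 9 of the 10, the exception being LRX1, and 61.1% of features had the larger SD in wild type. The median SD of the 10 genes was 0.58 in voz1 voz2 and 1.42 in wild type, beside medians of 0.29 and 0.33 over all features. Neither trait was particular to these genes. The median within-genotype SD was 1.007 in the wall and secreted protein list and 0.69 in root markers outside the hair, but 0.30 in the patterning list. The SD was larger in wild type for 15 of 17 wall genes, 11 of 12 signalling genes, 10 of 13 other root markers and 9 of 11 shoot markers, and for 5 of 10 patterning genes.

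Other root hair genes were described from 4 lists of 47 genes, 45 of them tested, of which none passed the threshold, beside 4.44% of all features. Estimates above 0 were found for 35 of the 45, against 47.2% of features, with a median of 0.74. When replicate number was blocked on, 4 of the 45 rose (ETC1, MYB23, AT5G43175 and OXI1), beside 6.74% of features called higher in that fit. Of the 45, 3 rose when slide was blocked on (8.13% of features), 1 with normexp background correction (3% of features), 1 with array weights (3.47%) and 6 without wild type replicate 2 (3.62%). None of the 45 passed under any other alternative.

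Of the 10 genes of hair cell patterning, 7 had estimates above 0, with a median of 0.47. ETC1, a small MYB protein that promotes hair fate, was at -3.42, -3.14, -3.56 and -3.08 in voz1 voz2, against -4.05, -3.67, -4.11 and -4.07 in wild type. Its mutant values were all above its wild type values, as was so for 1 of the 45 genes and for 8.46% of features. Its difference of 0.67 (SE 0.17, adjusted p = 0.0616) passed in the fit blocked on replicate number (adjusted p = 0.0333) and in that blocked on slide (0.0177), as well as with array weights (0.0358), with normexp (0.0432) and without wild type replicate 2 (0.0418). ETC1 passed under no other alternative, and so in no other fit that left out an array. MYB23, which acts with WER in cells that stay hairless and also in leaf trichomes, had 0.88 (SE 0.27) at an adjusted p of 0.0998, which blocking on replicate number or slide brought to 0.0494 or 0.0481. GL2, the repressor of hair fate, had 0.53 (SE 0.22) at an adjusted p of 0.197, or 0.0452 when slide was blocked on. Neither MYB23 nor GL2 passed under any further alternative. In their known roles ETC1 acts for hair fate, and MYB23 and GL2 act in hairless cells. This list mostly lacked the array order of the first 10 genes. Wild type replicate 4 was the lowest and replicate 2 the highest wild type array in 2 of its 10 genes, against 9 of the first 10 and 7.58% of features.

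Among 5 further bHLH factors, AT5G43175 had 1.32 (SE 0.41) at an adjusted p of 0.104, or 0.0382 in the fit blocked on replicate number, and was well above background on 4 mutant arrays and 2 wild type arrays. LRL1 and LRL2, factors of hair growth, had -0.34 and 0.33, LRL3 had 0.60, and AT2G14760, dim in both genotypes, had -0.38, all with adjusted p of 0.468 or more.

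In the list of signalling and tip growth genes 9 of 12 tested had estimates above 0, with a median of 0.63. The protein kinase gene OXI1 (AGC2-1 in RefSeq, AT3G25250), which acts downstream of reactive oxygen, was at -2.88, -1.98, -2.13 and -2.38 in voz1 voz2, against -3.85, -2.63, -3.53 and -4.44 in wild type. Its difference was 1.27 (SE 0.38, adjusted p = 0.0921), and it passed in the fit blocked on replicate number (adjusted p = 0.0377) and without wild type replicate 2 (0.0297). OXI1 passed under no other alternative. The kinase gene IRE had 0.90 (SE 0.59, adjusted p = 0.389) and was well above background on all mutant arrays and on 2 of the 4 wild type arrays.

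In the list of wall and secreted protein genes, 16 of 18 tested had estimates above 0, with a median of 1.16. LRX2, the partner of LRX1 in the hair wall, was at -4.67, -4.40, -4.17 and -4.50 in voz1 voz2, against -5.15, -4.64, -5.90 and -5.69 in wild type. Only wild type replicate 2 overlapped the mutant values. The difference was 0.91 (SE 0.28, adjusted p = 0.099), and without wild type replicate 2 it was 1.15 (adjusted p = 0.0336). The xyloglucan-modifying enzyme genes XTH13 and XTH12 had 0.80 and 1.42 (SE 0.30 and 0.56, adjusted p = 0.166 and 0.171), XTH13 with voz1 voz2 replicate 1 dropped because of an outlier flag. In this list wild type replicate 4 was the lowest of the 8 arrays for 13 of the 17 genes with a value on every array.

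**Figure D4:**
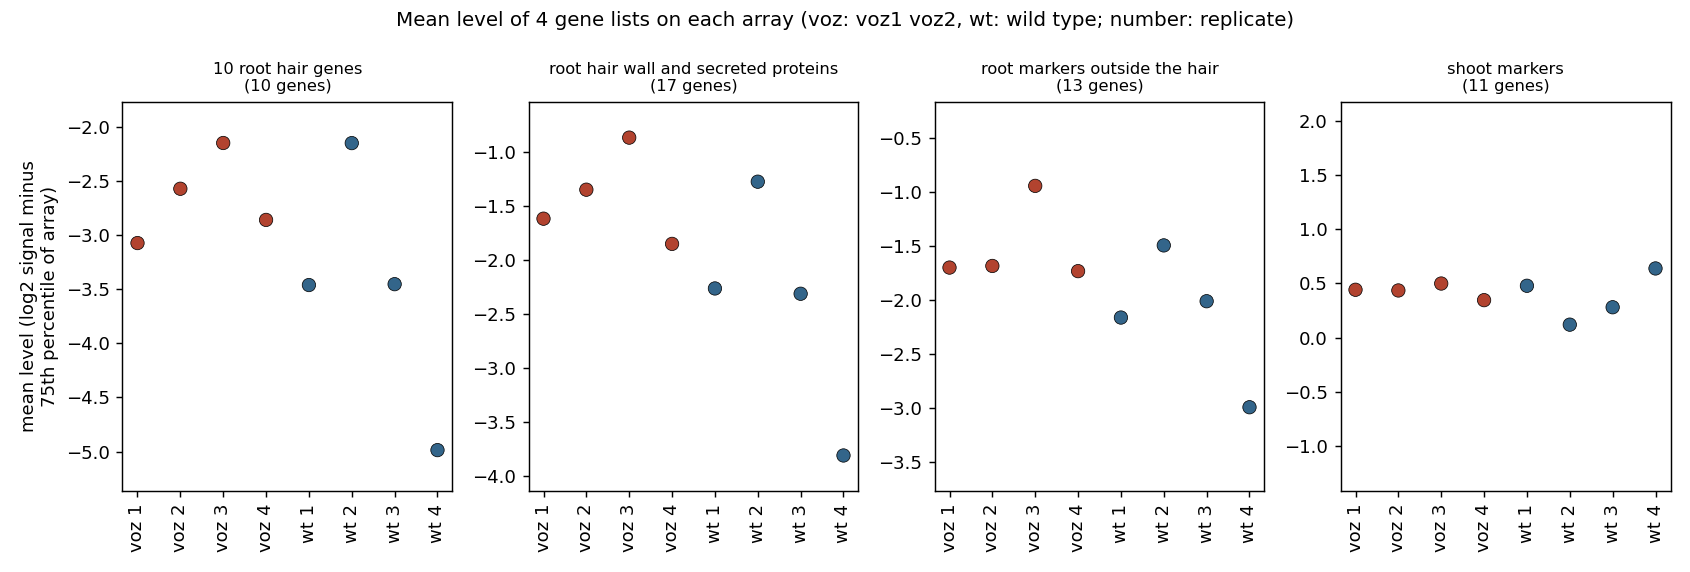
Mean level per array (log2 processed signal minus the array's 75th percentile, vertical axes spanning the same number of units) of the 10 root hair genes, of the root hair wall and secreted protein list, of root markers outside the hair and of shoot markers, on voz1 voz2 replicates 1 to 4 (red, left) and wild type replicates 1 to 4 (blue, right). Wild type replicate 4 is the lowest array in the first 3 panels and the highest in the shoot panel.

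Most of the root genes from outside the hair moved with the same arrays. Over 13 markers of the endodermis, stem cell niche, root cap and other root tissue, 11 had estimates above 0, with a median of 0.74, and 1 passed, WOX5 of the quiescent centre (0.69, SE 0.15, adjusted p = 0.0451), beside 2.72% of features called higher. WOX5 passed in 4 of 18 alternatives and in none of the 8 that leave out an array, with adjusted p from 0.0228 to 0.763 over the 18. Their mean level was -1.70, -1.69, -0.95 and -1.73 in voz1 voz2, against -2.16, -1.50, -2.01 and -2.99 in wild type. Wild type replicate 4 was the lowest of the 8 arrays for 9 of the 13, while WOX5 was lowest on wild type replicate 2, at -5.99. Summed over the 13, the linear signal in units of the 75th percentile lay between 38.9 and 44.1 in voz1 voz2 and between 30.5 and 44.9 in wild type, and no marker of this list was undetected. The bright marker PYK10, with a difference of -0.048, made up most of each of these sums. The mean level of the 11 shoot markers with a value on every array was 0.44, 0.43, 0.50 and 0.35 in voz1 voz2, against 0.48, 0.12, 0.28 and 0.64 in wild type, so the wild type arrays stood in the opposite order at the ends, replicate 4 at the top and replicate 2 at the bottom. Of 12 shoot markers tested 7 had estimates above 0 and none passed; 1 of them, RBCS1A, had a single wild type value. Summed over the 11, that signal was between 143.9 and 159.3 in voz1 voz2 and between 151.1 and 246.5 in wild type. Most of it came from LHCB3 and PSBO1. The part of root and shoot content in the values of the 10 genes was not tested.

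The genes outside these 10 whose levels, centred over the 8 arrays, were nearest to the mean pattern of the 10 were HK5 (AT5G10720), TBL21 (AT5G15890), ADF8 (AT4G00680), CNGC14 (AT2G24610), MRH6 (AT2G03720) and PIP5K3 (AT2G26420). Their root-mean-square distance from that pattern was 0.12, 0.15, 0.15, 0.17, 0.17 and 0.20 on the log2 scale, while the 10 genes themselves lay at 0.24 (RHD6) to 1.25 (RSL1). None of the 6 passed the threshold, with differences of 0.51 to 1.04 and adjusted p of 0.287 to 0.576. HK5, the nearest, was at -4.27, -3.67, -3.31 and -3.77 in voz1 voz2, against -4.31, -3.19, -4.47 and -5.90 in wild type. The 6 were picked for the smallest distance, so their short distances, order of arrays and positive differences follow from the choice and are no separate result.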

How the data were processed

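The scanner output holds intensity values of 1-colour Agilent arrays made with Agilent Feature Extraction 9.1.3.1, per the submitters' processing notes and the file headers. The intensity used is the background-subtracted processed signal. The series table deposited by the authors is on the natural log scale, found by comparison to be ln(processed signal) less a constant of 6.91 on voz1 voz2 and 6.42 on wild type arrays, and was an alternative only.

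Of 37478 probes, those well above background on at least 4 of 8 arrays were tested, spots with an outlier flag (9 to 111 per array) were left out, no spot was saturated, and the brightest probe stood for a locus. Tests used lmFit and eBayes of limma 3.58.1 under R 4.3.3 and were adjusted by Benjamini-Hochberg across the 24599 features. They were checked on simulated data with noise drawn independently for each feature and array. That check does not cover the array patterns that many genes share here. The 95% intervals are unadjusted. The number of arrays limits the precision. Symbols came from RefSeq (TAIR10.1), in which all 82 listed loci were found. Its coordinates are left out, no build of the array design being named in the labels or headers.

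The genes, lists and the naming rule (all 10 genes, VOZ1 and VOZ2, each list's called genes or else its 3 smallest p, and the 6 nearest patterns) were chosen with earlier results of these data known. One gene that the naming rule picks is not reported here. The main fit used no pairing. Only the replicate block and the differences within replicate numbers took equal numbers to pair arrays across genotypes. After subtracting genotype means, arrays of equal number had correlations over features of 0.318, 0.515, 0.465 and 0.614, but they also share a slide. Arrays of the same slide and unequal number had 0.538, 0.374, 0.331 and 0.265, so these values do not show that the numbers pair arrays. Alternatives were quantile or median scaling, normexp with an offset of 50 on the median signals (mean signals being not among the columns used here) followed by quantile normalization, the deposited values, no filter, slide or replicate number as a block, each slide alone, array weights, and leaving out each array.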

Additional observations from a re-analysis of the deposited data

Results flagged for a closer look

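RSL1 read -8.41 on voz1 voz2 replicate 1, far below the nearest of the other mutant arrays at -6.93, a gap of 0.887 of the range of the 4 values. The probe was not well above background on that array. It was the single such value among 20 groups of 4 checked, 10 genes in 2 genotypes, and chance gives about 1 in 20.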

How the results depend on the processing

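No gene of the 10 passed the threshold under any of the 18 alternatives, and RHD6, RSL4, EXPA7, EXPA18, COBL9, PRP3 and RHD2 kept estimates above 0 in all of them. Their size did not hold: normexp brought RHD6 to 0.53, RSL4 to 1.09, EXPA18 to 0.76, PRP3 to 0.83 and the median of the 10 genes from 1.16 to 0.64. In the deposited values RHD2 was at 0.26, where the 10 genes and the median of all features shifted down together. The sign turned in 11 of 180 values, all of RSL1, RSL2 or LRX1. RSL1 was at 0.20 with quantile normalization, 0.52 on slide 1, 0.10 without voz1 voz2 replicate 1 and 0.31 without wild type replicate 2 (-0.87 to 0.31 without 1 array). RSL2 was at -0.044 with normexp, -0.19 in the deposited values, -0.33 on slide 1, -0.021 without voz1 voz2 replicate 2, and -0.0064 and -0.42 without wild type replicates 3 and 4 (-0.42 to 0.59 without 1 array). LRX1 was at 0.35 on slide 2. The turn of RSL2 in the deposited values came with the shift of all features there. The cause of the other turns was not tested.

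The count of 1091 features past the threshold was 715 with median scaling, 70 in the deposited values, 514 with no filter, 3955 with slide as a block and 3314 with the replicate block, 0 on slide 1 and 0 on slide 2, and 387 to 1506 without 1 array. The fits on single slides have fewer samples. The share higher, 61.2%, was 42.9% in the deposited values, where the median of all features was -0.37 (-0.15 with median scaling) and that of the 10 genes 0.82. The 10 genes' non-overlapping counts of 0 became 7 higher and 1 lower on slide 1, beside 26.5% and 29.4% of features. On slide 2 the counts became 1 lower, beside 29.5%. Without 1 array they were 0 to 6 higher, with 6 without wild type replicate 2, beside 12.5%. That share is not a like comparison, as the array left out was the highest wild type array for all 10 genes. The count was 1 without voz1 voz2 replicate 4, for which no share of features was taken. Of the 45 wider hair genes 1 rose with normexp (3% of features), 1 with array weights (3.47%), 3 with slide as a block (8.13%) and 4 with the replicate block (6.74%). Without 1 array 0 to 6 rose, the 6 being without wild type replicate 2 (3.62% of features). No locus of the 10 has a second probe to set in place of the first. RSL1 and LRX1 were limited by signal near background on slide 1.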

Other observations

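MYB106, a MYB factor of trichome and epidermal development from the shoot list, was at -0.32 ± 0.44 in voz1 voz2 and -1.12 ± 0.27 in wild type (SD, n = 4 each). Its difference of 0.80 (SE 0.24, limma adjusted p = 0.099) passed when replicate number was blocked on (adjusted p = 0.0229) and when slide was (0.00746). The leaf patterning factor gene AS1 had -0.66 (SE 0.27, adjusted p = 0.19). RBCS1A, a small subunit gene of Rubisco, kept 3 of 4 mutant values and 1 of 4 wild type values, because the others carried an outlier flag, so no difference is given.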
